A study of Homo sapiens with 6 samples.

Results

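The 44 genes described here carry glucose into the cell, split it to pyruvate, make or export lactate, gate the entry of pyruvate into mitochondria, rebuild glucose, or run the pentose phosphate pathway. They were taken by name from a list of glucose transport, glycolytic, gluconeogenic, pyruvate and pentose phosphate genes, and 41 of the 44 were tested among 33616 named genes on the array. PFKFB4, SLC16A1 and SLC16A3 have no probe set with exactly 1 gene symbol in the table used here and were not analysed here. The cells were HepG2, an established line from a human liver tumour with a hepatocyte character. They had received 30 nM of an siRNA against UHMK1, a kinase known to phosphorylate the splicing factor SF1, or 30 nM of a scrambled siRNA, and RNA was collected 24 h later. Each group has 3 Affymetrix arrays, all cells were transfected with the same lipid reagent, and since no label tells separate cultures from repeats of one culture, the p-values cover the spread between these arrays, which may be technical. How many siRNA sequences were directed at UHMK1 is not stated in the labels, and the loss of UHMK1 and other effects of the siRNA cannot be told apart.

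Glycolysis turns glucose into pyruvate in the cytosol. Glucose enters through facilitative transporters, is trapped by hexokinase as a phosphate ester, passes the committed step at phosphofructokinase and leaves as pyruvate, which lactate dehydrogenase reduces to lactate or the pyruvate dehydrogenase complex sends to mitochondrial oxidation. Hepatocytes also run the route backwards and export glucose, whereas liver cancer cells are known to switch on the hexokinase HK2 and the transporter SLC2A1, which normal hepatocytes hardly express.

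UHMK1 stood at 8.36, 7.80 and 7.94 on the UHMK1 siRNA arrays, against 11.42, 11.24 and 11.74 on the scrambled siRNA arrays, in log2 units of the deposited values. Its log2 change, UHMK1 siRNA minus scrambled siRNA throughout, was -3.43 (SE 0.20, limma adjusted p = 0.000113). All 15 hepatocyte markers had mean log2 levels of 14.36 to 19.49, and 1 rose and 0 fell. The one that rose was FGG, a fibrinogen chain, by 0.97, named after its values were seen. Of the markers of other cells, 0 of 7 immune, 0 of 5 endothelial, 0 of 5 fibroblast and stellate and 0 of 4 biliary genes rose or fell. Mean log2 levels reached 6.19 among the endothelial, 10.19 among the fibroblast and stellate, 15.47 among the biliary and 18.38 among the immune markers, with EPCAM the brightest biliary and LYZ the brightest immune one. LYZ, which encodes lysozyme, was lower on every UHMK1 siRNA array, with a change of -0.48 that did not pass (limma adjusted p = 0.157). EPCAM and LYZ were named after their values were seen, and the part of these markers in the results was not tested. UHMK1 siRNA array 2 stood apart, with a median deviation from the scrambled siRNA mean of -0.25 over the 8865 genes of mean log2 level above 8, where UHMK1 siRNA arrays 1 and 3 had -0.03 and -0.06.

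Of the 41 tested genes 3 fell and 0 rose at an adjusted p under 0.05 in limma's fit over all 33616 genes. The genes that fell were HK2, the hexokinase typical of tumours, SLC2A1, the basal glucose transporter GLUT1, and PDK1, a kinase that inhibits the pyruvate dehydrogenase complex. Of all tested genes 897 fell, or 2.67%, and 244 rose, or 0.726%, and genes with a mean log2 level above 8 fell in 8.39% and rose in 2.00%. Of the 25 glucose metabolism genes above that level, 3 fell, which is near that background. At an unadjusted p under 0.05, 10 of the 41 were lower and 2 higher, where 10.1% of all tested genes were lower and 5.21% higher. Among genes above 8, 8 of the 25 were lower and 1 higher at that p, where 2103 of all 8865 were lower and 791 higher. The median log2 change of the 41 was -0.18, beside -0.02 over all tested genes, and for the 25 brighter ones it was -0.26, beside -0.11 over all genes above 8. Without UHMK1 siRNA array 2 the median was -0.10 for the 41 and -0.17 for the 25, beside -0.02 over all tested genes and -0.05 over all genes above 8, and HK2 and SLC2A1 fell while PFKFB1 rose. With each array centred on its median over genes above 8, 586 genes fell and 446 rose, and the median was -0.03 for the 41 beside 0.13 over all tested genes. In these bulk samples fewer cells expressing a gene and less RNA per cell cannot be told apart.

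**Figure D1:**
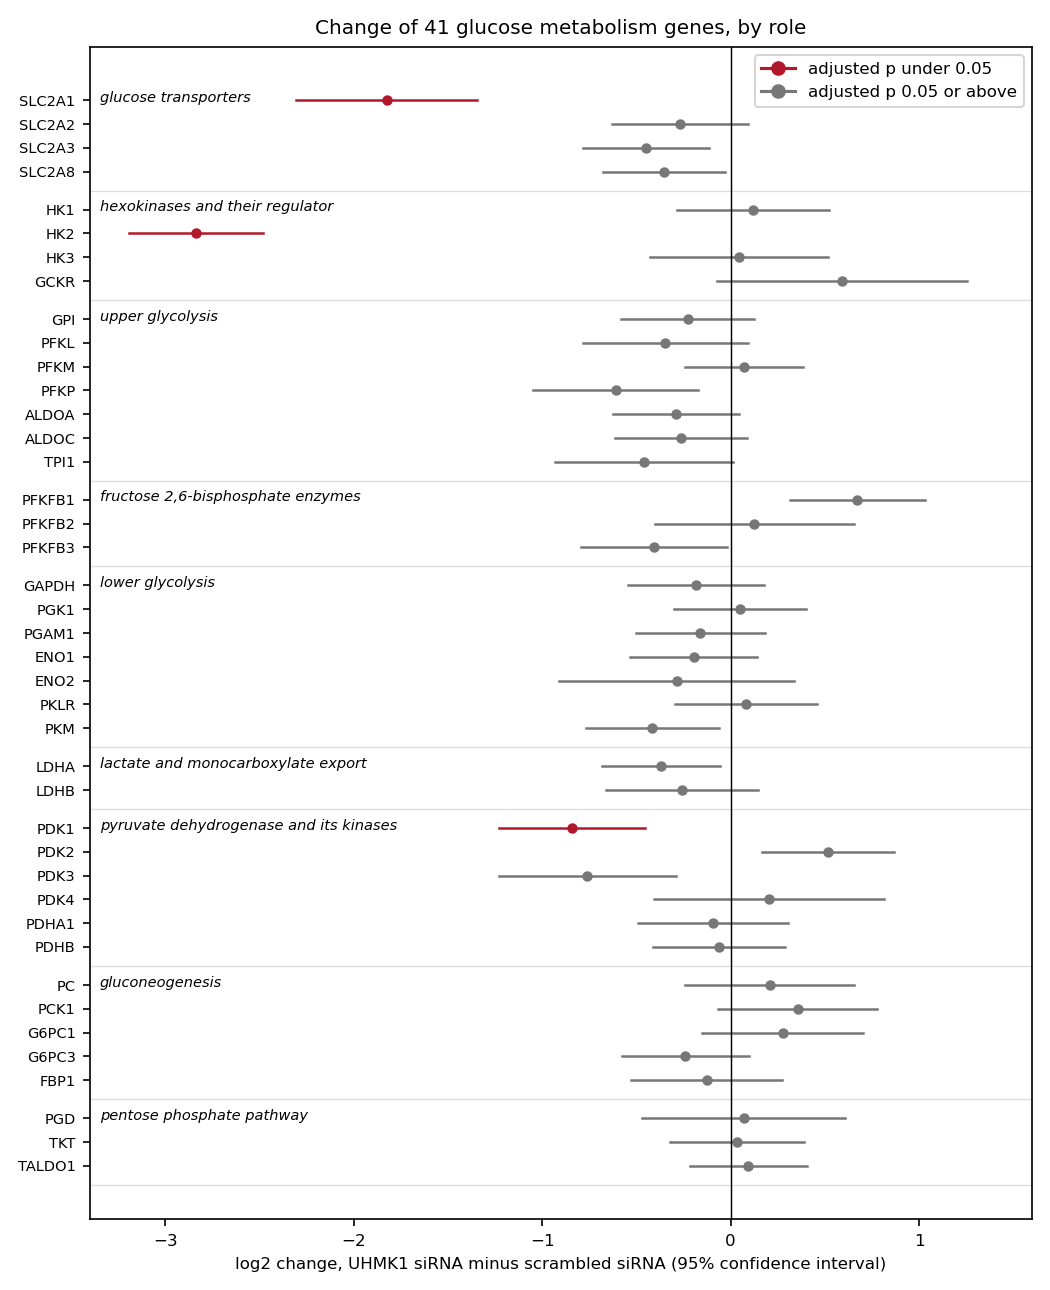
The log2 change of each of the 41 tested genes (x axis, UHMK1 siRNA minus scrambled siRNA), by role from top to bottom, with bars for the 95% confidence interval from limma. HK2 at -2.84 and SLC2A1 at -1.83 lie far to the left, PDK1 at -0.84 is the other gene past the threshold, and the intervals of most other genes include 0.

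The start-site windows of the 3 genes that fell are shown because these genes share a direction. The marked letters include those that the hypoxia-inducible factor recognises, and the part of this factor in the changes was not tested. The sequences are RefSeq's for GRCh38.p14, from 250 bases before to 50 after an annotated start, written along the gene's strand. Capitals mark the letters ACGTG or GCGTG on either strand, the core that the factor recognises, and the E-box CACGTG, which MYC with MAX and the glucose-sensing MLX complexes recognise and which overlaps that core.
HK2 at chr2:74833877-74834176, plus strand: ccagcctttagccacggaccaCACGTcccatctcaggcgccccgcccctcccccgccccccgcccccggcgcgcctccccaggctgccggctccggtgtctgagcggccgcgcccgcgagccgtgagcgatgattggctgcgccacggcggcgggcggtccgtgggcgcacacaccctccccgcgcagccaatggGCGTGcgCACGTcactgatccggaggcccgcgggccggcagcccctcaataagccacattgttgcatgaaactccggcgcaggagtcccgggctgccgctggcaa
HK2 at chr2:74834920-74835219, plus strand: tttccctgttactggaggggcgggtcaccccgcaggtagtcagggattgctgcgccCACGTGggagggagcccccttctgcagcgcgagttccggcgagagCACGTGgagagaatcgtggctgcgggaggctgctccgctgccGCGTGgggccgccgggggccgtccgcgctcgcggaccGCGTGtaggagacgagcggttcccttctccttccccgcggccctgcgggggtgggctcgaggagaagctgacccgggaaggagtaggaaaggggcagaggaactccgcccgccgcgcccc
PDK1 at chr2:172555840-172556139, plus strand: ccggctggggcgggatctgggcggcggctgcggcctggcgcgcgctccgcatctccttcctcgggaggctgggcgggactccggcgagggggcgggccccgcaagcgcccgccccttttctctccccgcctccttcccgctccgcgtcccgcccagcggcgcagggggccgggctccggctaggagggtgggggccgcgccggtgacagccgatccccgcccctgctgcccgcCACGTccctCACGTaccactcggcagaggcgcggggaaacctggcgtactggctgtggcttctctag
SLC2A1 at chr1:42958819-42959118, minus strand: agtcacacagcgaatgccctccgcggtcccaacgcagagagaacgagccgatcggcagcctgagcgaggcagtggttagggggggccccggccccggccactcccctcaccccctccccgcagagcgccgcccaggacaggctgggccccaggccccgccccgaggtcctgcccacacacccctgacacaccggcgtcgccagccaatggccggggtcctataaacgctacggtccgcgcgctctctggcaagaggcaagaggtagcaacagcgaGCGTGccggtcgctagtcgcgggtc

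The first HK2 window held 3 core matches and 0 E-boxes, and the second held 6 core matches, with each of its 2 E-boxes counted on both strands. The printed PDK1 window held 2 core matches, and a second PDK1 window at chr2:172555123-172555422 held 0. SLC2A1 held 1 core match, which lies after the start. Such letters are common: 48.4% of all 35116 windows held the core and 7.26% the E-box. Of the 68 windows of 38 of the 41 genes, 57.4% held the core and 17.6% the E-box. By gene, 29 of the 38 had a window with the core, beside 14318 of all 27305 genes, so it is not particular to the genes that fell. A match is a description of the letters and not a bound site.

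All 4 glucose transporters had negative changes, as had 5543 of the 8865 genes above 8, and 1 of 4 passed the test. SLC2A1 (chr1:42925353-42958868, GRCh38.p14) stood at 13.75, 12.95 and 13.57 on the UHMK1 siRNA arrays, against 15.15, 15.32 and 15.28 on the scrambled siRNA arrays. The groups did not overlap, UHMK1 siRNA array 2 was the lowest, and the SD was 0.42 on the UHMK1 siRNA arrays and 0.09 on the scrambled siRNA arrays (n = 3 each). The log2 change was -1.83 (SE 0.21, 95% confidence interval -2.31 to -1.35, limma adjusted p = 0.00265), which leaves 28.2% of the scrambled siRNA signal. It was -1.59 without UHMK1 siRNA array 2, and the call held with any 1 array left out.

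SLC2A3, the high-affinity transporter GLUT3, stood at 15.70, 15.45 and 15.63 on the UHMK1 siRNA arrays, against 16.02, 16.15 and 15.96 on the scrambled siRNA arrays. The groups did not overlap, but its change of -0.45 did not pass (SE 0.15, limma adjusted p = 0.169). It passed where the variance was modelled with a trend and robust fit (adjusted p = 0.0285). SLC2A14, a near-identical neighbour of SLC2A3 named after its values were seen, changed by -0.46, and probes for either can bind both transcripts. SLC2A8, an intracellular transporter, stood at 10.00, 9.87 and 9.88 after UHMK1 siRNA, against 10.20, 10.22 and 10.39 after scrambled siRNA. SLC2A2, the hepatocyte transporter GLUT2, changed by -0.27 (95% confidence interval -0.63 to 0.09) and its groups overlapped.

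HK2 (chr2:74834127-74893359) had the largest change of the 41 genes and ranked 7 among the falls of all tested genes. It stood at 7.03, 6.80 and 6.89 on the UHMK1 siRNA arrays, against 9.60, 9.69 and 9.94 on the scrambled siRNA arrays. The gap between the groups was many times the spread within them. The log2 change was -2.84 (SE 0.16, 95% confidence interval -3.19 to -2.48, limma adjusted p = 9.41e-05), a 7.14-fold lower signal, or 14.0% of that after scrambled siRNA. With 1 array left out it ranged from -2.91 to -2.74 and kept its call.

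The other hexokinase genes gave little signal. HK1, the ubiquitous hexokinase, lay at 3.70 ± 0.10 after UHMK1 siRNA and 3.58 ± 0.29 after scrambled siRNA (SD, n = 3 each), at the 13.8th percentile of all tested levels, where a change may be missed. HK3, typical of white blood cells, lay at 4.95 ± 0.21 after UHMK1 siRNA and 4.90 ± 0.36 after scrambled siRNA (SD, n = 3 each). GCKR, which holds glucokinase in the nucleus of the hepatocyte, stood at 7.25, 6.40 and 7.35 on the UHMK1 siRNA arrays, against 6.08, 6.24 and 6.91 on the scrambled siRNA arrays. Its change of 0.59 did not pass (SE 0.29, limma adjusted p = 0.395), the groups overlapped, and a second probe set of the gene gave 0.49. Without UHMK1 siRNA array 2 the change was 0.89 and did not pass either.

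**Figure D2:**
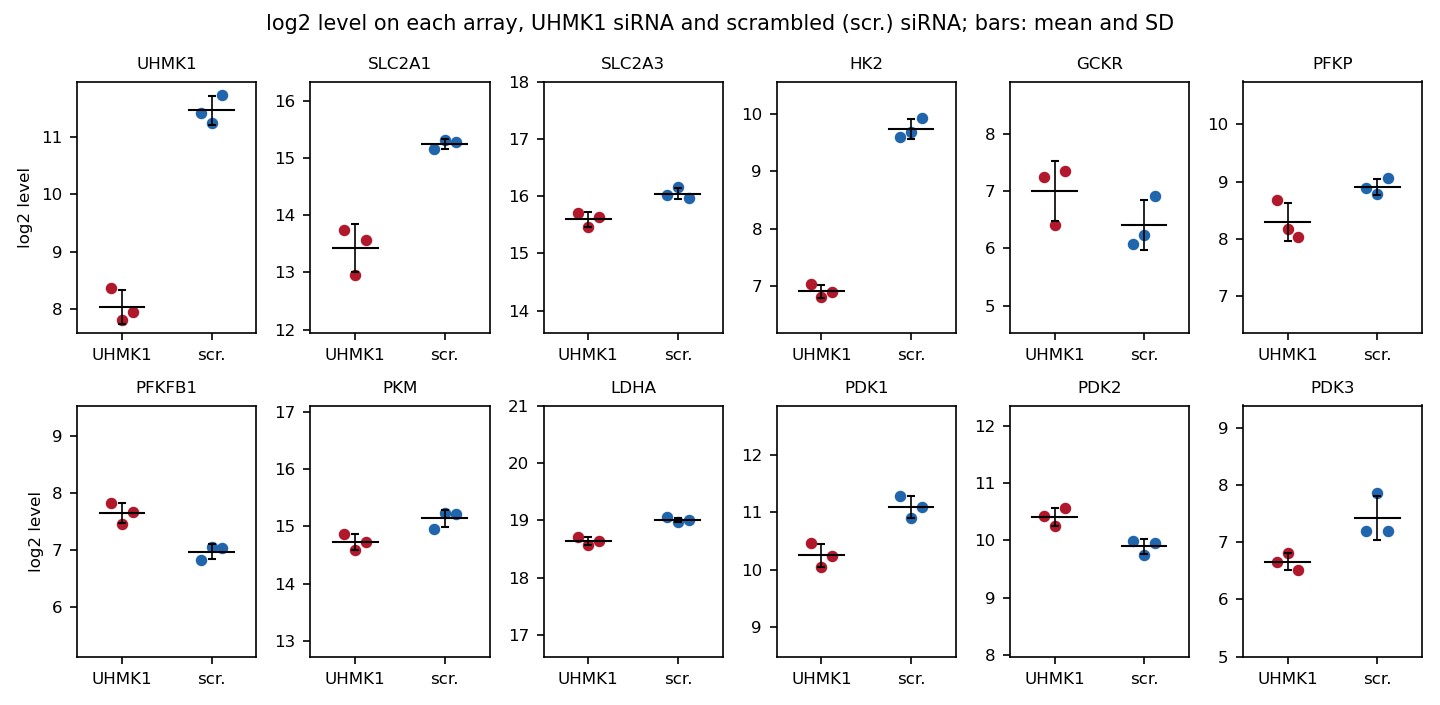
The log2 level on each array for UHMK1 and 11 glucose metabolism genes, UHMK1 siRNA left and scrambled (scr.) siRNA right, with the mean and SD as bars (n = 3 each); each panel spans the same number of log2 units around its own level. UHMK1, HK2 and SLC2A1 show wide gaps between the groups, while SLC2A3, PKM and LDHA differ by -0.45, -0.42 and -0.37.

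None of the 7 genes of upper glycolysis passed, and 6 of the 7 changes were negative, with a median of -0.29. Negative changes were also found in 18210 of all 33616 tested genes and in 5543 of the 8865 genes above 8. Without UHMK1 siRNA array 2 the median of the 7 was -0.22. At an unadjusted p under 0.05, PFKP alone was lower. PFKP, the platelet type of phosphofructokinase, stood at 8.68, 8.18 and 8.04 on the UHMK1 siRNA arrays, against 8.89, 8.78 and 9.06 on the scrambled siRNA arrays. Its groups did not overlap and its change was -0.61 (SE 0.19, limma adjusted p = 0.153). The liver type PFKL changed by -0.35 with overlapping groups, and the muscle type PFKM by 0.07 at levels of 6.41 ± 0.04 after UHMK1 siRNA and 6.34 ± 0.08 after scrambled siRNA (SD, n = 3 each). TPI1, triose phosphate isomerase, stood at 13.86, 13.04 and 13.53 after UHMK1 siRNA, against 13.90, 14.02 and 13.89 after scrambled siRNA, and its change was -0.46, or -0.24 without UHMK1 siRNA array 2. The aldolases ALDOA and ALDOC changed by -0.29 and -0.26, and GPI, which makes fructose phosphate from glucose phosphate, by -0.23.

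The bifunctional PFKFB enzymes make and break fructose bisphosphate signals that switch phosphofructokinase on. PFKFB1, the liver form, stood at 7.82, 7.46 and 7.66 on the UHMK1 siRNA arrays, against 6.83, 7.06 and 7.03 on the scrambled siRNA arrays. All UHMK1 siRNA arrays were higher, and the change of 0.67 fell just short of the threshold (SE 0.16, 95% confidence interval 0.31 to 1.03, limma adjusted p = 0.0576). It passed without UHMK1 siRNA array 2 (0.77, adjusted p = 0.0461), with array weights (0.72, adjusted p = 0.0246) and with dim genes left out (adjusted p = 0.0156). The change also passed after centring on genes above 8 (0.82, adjusted p = 0.0216) and after cyclic loess normalization of the tested genes (0.74, adjusted p = 0.0269). It missed the threshold in the 5 other fits that drop an array. The same held in 5 of the 9 alternatives that keep all arrays, among them quantile normalization, the trend and robust fit and the replicate block. PFKFB3, the inducible form of tumour cells, lay near the lower end of the scale at 3.78 ± 0.16 after UHMK1 siRNA and 4.19 ± 0.23 after scrambled siRNA (SD, n = 3 each), a change of -0.41 that did not pass. PFKFB2, the heart form, changed by 0.13 with overlapping groups.

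Lower glycolysis, from GAPDH to pyruvate kinase, had 0 calls among 7 genes and a median change of -0.18, with PKM alone lower at an unadjusted p under 0.05. Without UHMK1 siRNA array 2 the median was -0.055 and 0 of the 7 were lower at that level. Several of these transcripts lay near the top of the deposited scale, whose highest value was 19.93, so changes may be compressed, which was not tested. GAPDH stood at 19.06, 18.68 and 19.07 on the UHMK1 siRNA arrays, against 19.13, 19.11 and 19.12 on the scrambled siRNA arrays. UHMK1 siRNA array 2 was low, and the other arrays lay close together. Its change was -0.18, or -0.055 without that array. The pyruvate kinase PKM stood at 14.86, 14.58 and 14.72 after UHMK1 siRNA, against 14.96, 15.24 and 15.21 after scrambled siRNA. Its groups did not overlap, and its change of -0.42 did not pass (limma adjusted p = 0.234). PKLR, the liver and red cell pyruvate kinase, changed by 0.08 (95% confidence interval -0.30 to 0.46).

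The enolase ENO1 changed by -0.20 on the probe set used, at a mean level of 17.98, and by 0.40 on a second, dimmer probe set, so the 2 disagreed in sign. ENO2, the neuronal enolase, changed by -0.29 at a mean level of 4.83. PGAM1, phosphoglycerate mutase, changed by -0.16 and by -0.06 on its other probe set, and PGK1, phosphoglycerate kinase, by 0.05. Genes such as GAPDH, PGAM1 and ENO1 have processed copies elsewhere in the genome that probes may also bind.

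LDHA, which turns pyruvate into lactate, stood at 18.71, 18.56 and 18.64 on the UHMK1 siRNA arrays, against 19.05, 18.97 and 19.00 on the scrambled siRNA arrays. The groups did not overlap and had little spread, and the change of -0.37 did not pass (SE 0.14, limma adjusted p = 0.233), although it did with the trend and robust fit (adjusted p = 0.0150). LDHB lay near the lower end of the scale at 4.12 ± 0.08 after UHMK1 siRNA and 4.38 ± 0.29 after scrambled siRNA (SD, n = 3 each).

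The pyruvate dehydrogenase kinases, which switch the complex off, differed in sign, and 1 of 4 passed. PDK1 (chr2:172555373-172724312) stood at 10.46, 10.05 and 10.23 on the UHMK1 siRNA arrays, against 11.28, 10.90 and 11.09 on the scrambled siRNA arrays. The groups did not overlap, and the log2 change was -0.84 (SE 0.17, limma adjusted p = 0.0325), or 55.7% of the signal after scrambled siRNA. The call was lost without any single array but UHMK1 siRNA array 1, at changes of -0.94 to -0.75, and when arrays were centred on the median of genes above 8 (-0.69, adjusted p = 0.0572).

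PDK2, the most widely expressed of these kinases, stood at 10.42, 10.25 and 10.56 on the UHMK1 siRNA arrays, against 9.98, 9.75 and 9.95 on the scrambled siRNA arrays. It was higher on all UHMK1 siRNA arrays, with a change of 0.52 that did not pass (SE 0.15, limma adjusted p = 0.130) but did with dim genes left out (adjusted p = 0.0410) and after cyclic loess normalization of the tested genes (0.64, adjusted p = 0.0469). PDK3 stood at 6.65, 6.81 and 6.51 after UHMK1 siRNA, against 7.20, 7.86 and 7.19 after scrambled siRNA. Its groups did not overlap and its change of -0.76 did not pass (limma adjusted p = 0.0971), though it did with dim genes left out (adjusted p = 0.0325). PDK4, induced by fasting in liver and muscle, lay at 3.75, 4.95 and 4.31 after UHMK1 siRNA, against 4.02, 4.28 and 4.10 after scrambled siRNA, so the groups overlapped at a level near the lower end. The complex's own subunits PDHA1 and PDHB changed by -0.09 (95% confidence interval -0.49 to 0.31) and -0.06 (95% confidence interval -0.41 to 0.29).

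Gluconeogenic genes had 0 calls among 5, none was past an unadjusted p of 0.05, and the median change was 0.21. Without UHMK1 siRNA array 2 the median was 0.23 and 1 of the 5, PC, was higher at an unadjusted p under 0.05. In that fit 2105 of all 33616 tested genes were higher at that p. PCK1, the cytosolic enzyme that commits oxaloacetate to glucose, stood at 6.13, 6.50 and 6.12 on the UHMK1 siRNA arrays, against 5.99, 5.60 and 6.09 on the scrambled siRNA arrays. The groups nearly touched, and the change was 0.36 (95% confidence interval -0.06 to 0.78). G6PC1, the liver glucose phosphatase, lay at 4.80 ± 0.28 after UHMK1 siRNA and 4.52 ± 0.21 after scrambled siRNA (SD, n = 3 each), and FBP1, fructose bisphosphatase, at 3.69 ± 0.06 after UHMK1 siRNA and 3.82 ± 0.29 after scrambled siRNA (SD, n = 3 each). Both were dim. G6PC3, the ubiquitous glucose phosphatase, changed by -0.24 at a mean level of 14.28. PC, pyruvate carboxylase, changed by 0.21, with UHMK1 siRNA array 2 at 6.71 and UHMK1 siRNA arrays 1 and 3 at 7.42 and 7.29. Without array 2 its change was 0.42 (limma adjusted p = 0.199). A second probe set of PC changed by -0.03 over all arrays, at a mean level of 3.03 near the lower end of the scale.

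The 3 pentose phosphate genes changed by 0.03 to 0.09, or by 0.13 to 0.32 without UHMK1 siRNA array 2, and 0 passed in either fit. TKT, transketolase, changed by 0.03 (95% confidence interval -0.32 to 0.39) and TALDO1, transaldolase, by 0.09 (95% confidence interval -0.22 to 0.40), both at bright levels. TALDO1 stood at 12.29, 12.22 and 12.36 after UHMK1 siRNA, against 12.18, 12.20 and 12.21 after scrambled siRNA. PGD, which makes NADPH from phosphogluconate, ranged more widely within each group, at 11.15, 10.36 and 11.06 after UHMK1 siRNA, against 10.56, 11.10 and 10.70 after scrambled siRNA, and changed by 0.07 (95% confidence interval -0.47 to 0.61).

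Of the 41 genes, 16 stood lower on every UHMK1 siRNA array than on any scrambled siRNA array, and 4 stood higher on every one. That is 39.0% lower, beside 13.3% of all tested genes, and 9.76% higher, beside 7.74%. Among genes above a mean log2 level of 8 the shares were 52.0% of 25, beside 30.0% of 8865, for lower and 2 of 25, beside 13.0%, for higher. On single arrays the median deviation of the 25 from the scrambled siRNA mean was -0.12, -0.43 and -0.18 on UHMK1 siRNA arrays 1, 2 and 3. It ran below that of all 8865 genes on each of these arrays, and both were lowest on array 2. The part of the array itself in the members' median was not tested, and the members were chosen with earlier results of these data known.

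**Figure D3:**
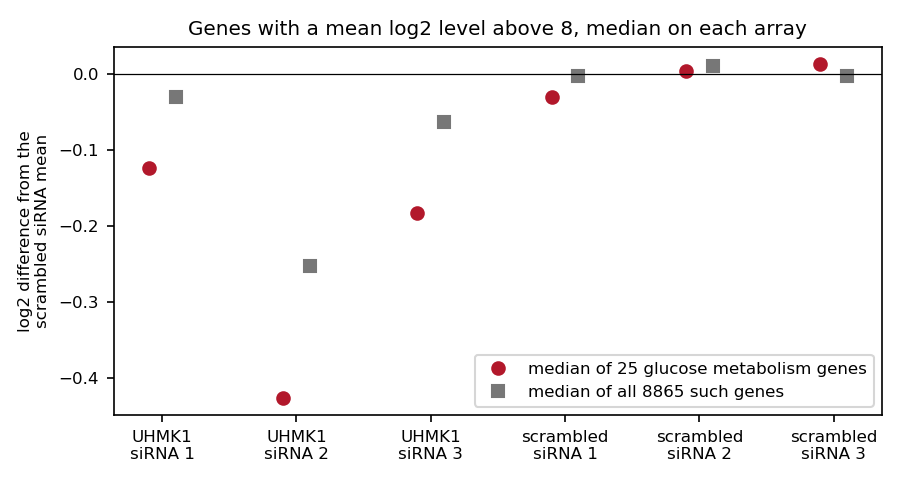
Median log2 difference from the scrambled siRNA mean on each of the 6 arrays, for the 25 glucose metabolism genes (circles) and all 8865 genes (squares) with a mean log2 level above 8. Circles lie at -0.12, -0.43 and -0.18 on the UHMK1 siRNA arrays and between -0.03 and 0.01 on the scrambled siRNA arrays; squares reach -0.25 on UHMK1 siRNA array 2.

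Isozymes of a step were compared in their size of change. For 11 pairs the within-array difference between the genes was compared between groups with a two-sided exact permutation test, which cannot go below p = 0.1 with 3 arrays a group. PDK1 changed by -1.36 relative to PDK2 and SLC2A1 by -1.56 relative to SLC2A2, with no overlap between groups (exact permutation p = 0.1, 0.22 adjusted over the 11 pairs, for each). SLC2A3 changed by 1.38 relative to SLC2A1 and PKLR by 0.50 relative to PKM, also with no overlap and the same p. No value is given for HK2 against HK1, whose probe set gave little signal. The other pairs, PFKP and PFKM against PFKL, ALDOC against ALDOA, ENO2 against ENO1, LDHB against LDHA and PDK4 against PDK1, overlapped between groups. ENO2, LDHB and PDK4 also gave little signal, so an unequal change may be missed in their pairs.

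Among 69 tested genes of 77 listed for neighbouring steps, 7 fell and 1 rose, with a median change of -0.11, or -0.04 without UHMK1 siRNA array 2. That is 10.1% lower and 1.45% higher, beside 2.67% and 0.726% of all tested genes and 8.39% and 2.00% of genes above 8, so the shares lie near those of the brighter genes. ADPGK, an ADP-dependent glucokinase, averaged 7.58 ± 0.42 on the UHMK1 siRNA arrays and 8.81 ± 0.07 on the scrambled siRNA arrays (SD, n = 3 each). Its change was -1.23 (SE 0.21, limma adjusted p = 0.0151) with no overlap. PGAM5, a mitochondrial phosphatase named after the mutase family, fell by 1.08 (limma adjusted p = 0.00796). The hexokinase-like HKDC1 fell by 0.81, the fructokinase KHK by 0.75, the malic enzyme ME2 by 0.89 and SLC37A4, which carries glucose phosphate into the endoplasmic reticulum, by 0.97. RPIA, which isomerises ribose phosphate in the pentose phosphate pathway, stood at 9.04, 9.02 and 9.00 after UHMK1 siRNA, against 9.76, 9.60 and 9.84 after scrambled siRNA, and fell by 0.71. MPC2, a subunit of the mitochondrial pyruvate carrier, rose by 0.83 (limma adjusted p = 0.0420), with 12.90, 13.05 and 12.88 after UHMK1 siRNA, against 11.92, 11.97 and 12.46 after scrambled siRNA. Leaving out single arrays gave 0 to 4 falls and 0 or 1 rise in the list. PGAM5 missed the threshold when scrambled siRNA array 2 was dropped (-1.05), and HKDC1, KHK and RPIA missed it whichever array was dropped (-0.91 to -0.62). ADPGK and ME2 missed it on dropping UHMK1 siRNA array 1 or one of the scrambled siRNA group (-1.26 to -1.19 and -0.94 to -0.87). SLC37A4 passed when UHMK1 siRNA array 2 was dropped and in no other such fit (-1.10 to -0.92), and MPC2 passed when scrambled siRNA array 3 was dropped and in no other (0.73 to 0.86). Centring on genes above 8 ended the calls of HKDC1, KHK, RPIA and SLC37A4 (-0.82 to -0.56).

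Of 27 regulators of glucose metabolism genes 6 fell and 0 rose, with a median change of -0.20. That is 22.2% lower, beside 2.67% of all tested genes and 8.39% of genes above 8. With centring on genes above 8 it was 11.1%, beside 5.61% of genes above 8. The list was chosen with earlier results of these data known, so its share of falls is not an independent result. TXNIP, a glucose-induced protein that restrains glucose uptake, stood at 8.20, 7.54 and 8.06 on the UHMK1 siRNA arrays, against 10.01, 9.48 and 9.18 on the scrambled siRNA arrays. Its change of -1.62 (SE 0.25, limma adjusted p = 0.00911) held its call with any 1 array left out. MLXIP, also called MondoA, and its partner MLX form a complex known to drive TXNIP transcription. The part of this complex in the lower TXNIP level was not tested. MLXIP fell by 0.94 and MLX by 0.85, while the liver paralogue MLXIPL, or ChREBP, named after its values were seen, changed by 0.52 (limma adjusted p = 0.266). MLXIP rests on the probe set chosen, since the mean over its 13 probe sets changed by -0.28.

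MYC, which activates many glycolytic genes, stood at 11.67, 11.72 and 11.54 after UHMK1 siRNA, against 12.51, 12.50 and 12.44 after scrambled siRNA, and fell by 0.84 (limma adjusted p = 0.0135). FOXO1, a driver of gluconeogenic genes, fell by 0.94, but changed by -0.46 over the mean of its probe sets, and CEBPA, a liver transcription factor, fell by 0.91. Of the hypoxia factor's subunits, named after their values were seen, HIF1A overlapped between groups, at 16.22, 16.50 and 16.54 after UHMK1 siRNA, against 16.56, 16.46 and 16.32 after scrambled siRNA (95% confidence interval of the change -0.38 to 0.33). EPAS1, or HIF-2 alpha, was lower on every UHMK1 siRNA array, at 13.69, 13.74 and 13.81 after UHMK1 siRNA, against 14.08, 14.33 and 14.30 after scrambled siRNA. Its change of -0.49 did not pass (limma adjusted p = 0.128), but did with dim genes left out (adjusted p = 0.0394) and with the trend and robust fit (adjusted p = 0.0265). ARNT, the shared partner of both, was higher on every UHMK1 siRNA array, with a change of 0.50 that did not pass (limma adjusted p = 0.199). Leaving out single arrays gave 1 to 5 falls among the regulators. MLX missed the threshold whichever array was dropped (-0.95 to -0.75), and MLXIP on dropping UHMK1 siRNA array 1 or one of the scrambled siRNA group (-0.96 to -0.82). MYC and FOXO1 missed it on dropping UHMK1 siRNA array 3 or one of the scrambled siRNA group (-0.86 to -0.79 and -0.98 to -0.91), and CEBPA on dropping scrambled siRNA array 2 or 3 or UHMK1 siRNA array 1 or 3 (-0.89 to -0.83). Centring on genes above 8 ended the calls of MLX, MYC and CEBPA (-0.76 to -0.69).

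**Figure D4:**
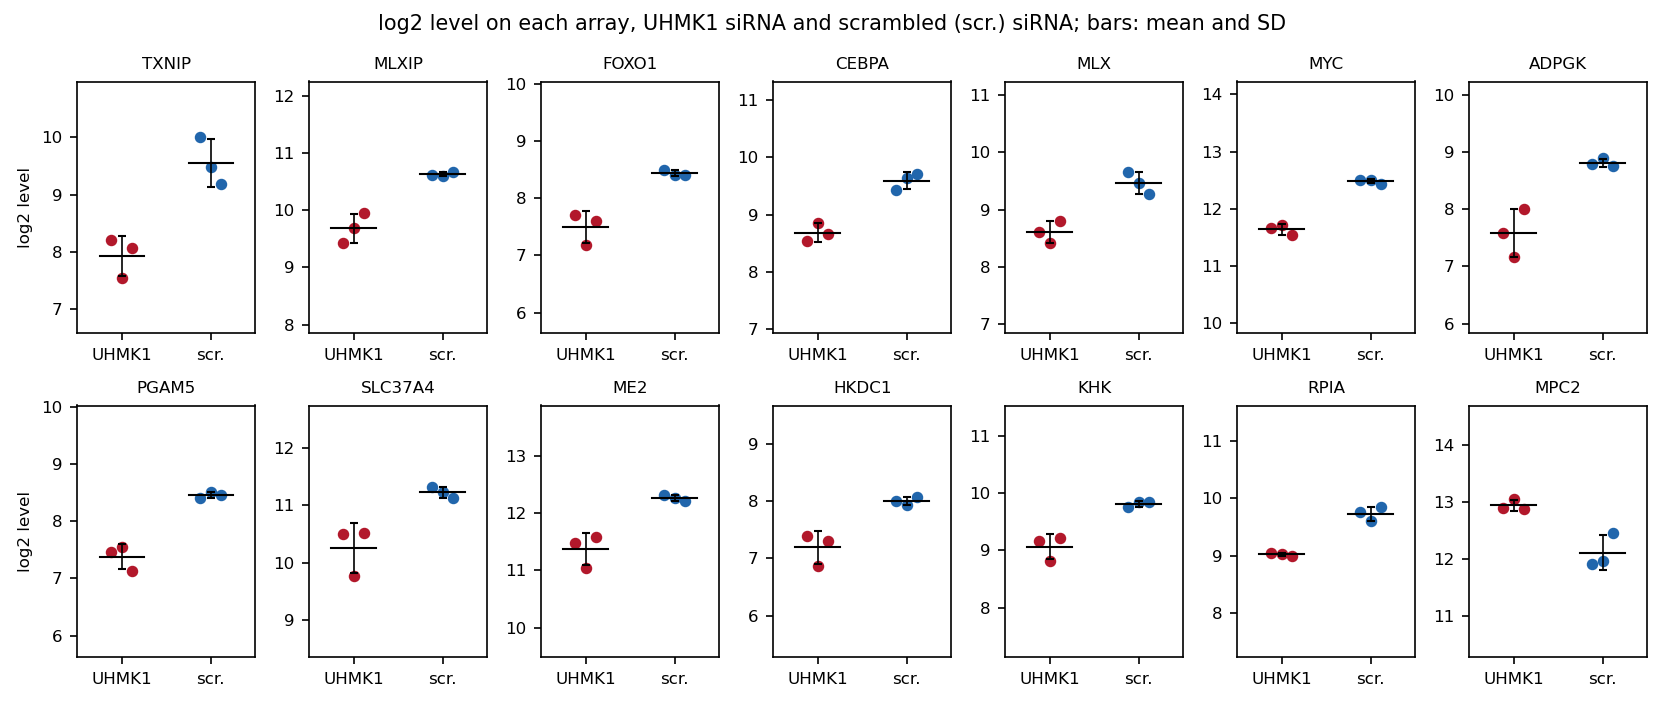
The log2 level on each array for the 6 regulators and 8 neighbouring pathway genes past the threshold, UHMK1 siRNA left and scrambled (scr.) siRNA right, with the mean and SD as bars (n = 3 each); each panel spans the same number of log2 units. TXNIP shows the widest gap, at -1.62, and MPC2 is the one gene that is higher after UHMK1 siRNA.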

How the data were processed

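RNA of 6 HepG2 samples was labelled with biotin as cRNA for Affymetrix arrays, per the labels' protocols. The deposited table holds log2 expression values for 135750 probe sets, and the submitters' processing notes name Transcriptome Analysis Console 4.0 and the RMA method. RMA as usually run corrects background, normalizes by quantiles and summarises probes. The deposited arrays do not share 1 distribution: their medians run from 4.40 to 4.55, and the highest value is 19.36 on UHMK1 siRNA array 2 and 19.93 on the others, so the normalization actually applied is not known. The sources used here name no genome build for the probe sets. The authors' log2 values were used as deposited.

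Of the probe sets 36176 have 1 symbol in the array's gene table, 1119 have several and 98455 have none, and symbols were updated by Entrez gene ID to RefSeq (GRCh38.p14), which also gives the gene coordinates. Per gene the probe set with the highest mean over 6 arrays was kept, leaving 33616 genes. UHMK1 siRNA was compared with scrambled siRNA with limma 3.58.1 in R 4.3.3 (lmFit, eBayes, two-sided, no covariates), with Benjamini-Hochberg adjustment over all 33616 genes and a threshold of 0.05. The fit was tested on simulated data with known changes. The smallest change called was 1.52-fold, so smaller ones may be missed, and the number of arrays limits the precision.

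The members and gene lists were chosen with earlier results of these data known. Named were all members, UHMK1, and in the other 2 lists each gene past the threshold and the 6 with the smallest p, which all passed. Alternatives were 2 normalizations, centring, a level minimum of 6, the mean of probe sets, a trend and robust fit, array weights, the replicate number as a block, and each array left out. Cyclic loess over the tested genes was added after seeing the data. Same-numbered arrays of the groups did not deviate together (correlations 0.05, 0.03 and -0.04), so the numbers were not taken as pairs.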

Additional observations from a re-analysis of the deposited data

How the results depend on the processing

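The count of genes that rose and fell over all tested genes was 446 and 586 with arrays centred on the median of genes above 8, 517 and 1570 with dim genes left out (fewer genes tested), 400 and 1285 with the trend and robust fit, 402 and 1054 with array weights, and 406 and 739 with cyclic loess over the tested genes (chosen after seeing the data), against 244 and 897 as reported. It ranged from 70 to 237 and from 319 to 662 over the fits that drop an array, and was 146 and 576 with the replicate number as a block, although same-numbered arrays did not deviate together (correlations 0.05, 0.03 and -0.04).

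Of the 41 glucose metabolism genes, 1 rose with centring, with array weights and without UHMK1 siRNA array 2. With cyclic loess over the tested genes 2 rose, or 4.88%, beside 1.21% of all tested genes and 3.58% of genes above 8. With the trend and robust fit 5 fell, or 12.2%, beside 3.82% of all tested genes. Among genes above 8 that fit gave falls in 20% of the 25 members, beside 12.6%. Leaving dim genes out left 33 members, of which 2 rose and 4 fell. That is 6.06% and 12.1%, beside 3.82% and 11.6% of all genes tested in that fit. Dropping an array gave 0 to 1 rise and 2 to 3 falls. HK2 and SLC2A1 fell under all 15 alternatives, and the replicate block left the 3 calls in place. In the neighbouring pathway list 3 rose with centring, with array weights and with cyclic loess over the tested genes, and 3 fell with centring. With dim genes left out 3 rose and 10 fell there, of 52 then tested. Under the replicate block 0 rose and 2 fell in that list. Dropping an array gave 0 to 1 rise and 0 to 4 falls there. Of the regulators 3 fell with centring, 10 with dim genes left out (of 26 then tested) and 5 under the replicate block. With an array dropped 1 to 5 fell, and 0 rose in each of these fits. Some of these fits also held fewer genes or fewer arrays, and the cause of the shifts was not tested.

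Changes turned sign between fits in some members that were not called. Not all of these were near 0: as reported, ENO2 changed by -0.29, PDK4 by 0.20 and ENO1 by -0.20. HK3 was -0.0139 under quantile normalization and -0.0022 under cyclic loess, PFKM -0.0067 under quantile normalization, PGK1 -0.0103 with array weights, and ENO1 0.10 over the mean of its probe sets. PDHA1 and PDHB were 0.0567 and 0.0867 with centring, 0.015 and 0.0062 with array weights, and 0.0341 and 0.0651 with cyclic loess over the tested genes, and FBP1 was 0.0233 with centring. With 1 array left out HK3 ranged from -0.0683 to 0.26, PFKFB2 from -0.0683 to 0.32, PGK1 from -0.045 to 0.12, ENO2 from -0.46 to 0.0483, PKLR from -0.0567 to 0.20, PDK4 from -0.10 to 0.50, PDHA1 from -0.19 to 0.0767, PDHB from -0.13 to 0.0533, FBP1 from -0.22 to 0.0433, PGD from -0.0767 to 0.32 and TKT from -0.0183 to 0.14. Genes near either end of the scale are limited by signal, and a change there may be missed.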
